A study of Rattus norvegicus with 320 samples.

Results

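The miR-99/100 family and the miR-125 family were followed through the 5 members that the deposited rat table lists as mature 5p products: rno-miR-99a-5p, rno-miR-99b-5p, rno-miR-100-5p, rno-miR-125a-5p and rno-miR-125b-5p. They were chosen by name, as 5 of the 616 miRNAs of the table, and are written below without the prefix for rat. The 616 include 12 rows of candidate miRNAs. The study sequenced small RNA from whole organs of Fischer 344 rats of both sexes to map miRNA abundance over organs and over the life span, and no treatment is given for any group. Each of 32 rats, 16 per sex, gave 10 organs. Brain, heart, skeletal muscle, lung, liver, kidney, adrenal gland, spleen and thymus came from 4 males and 4 females at each of weeks 2, 6, 21 and 104, testis from 4 males and uterus from 4 females. These weeks stand for juvenile, adolescent, adult and aged animals. The table held 320 samples in 80 groups of 4, and all were used but the 2 that the study set aside: replicate 3 of male brain at week 6 and replicate 4 of female spleen at week 104.

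MicroRNAs are short RNAs that lead a silencing complex to messenger RNAs, which they recognise mainly through the seed near their 5′ end. The miR-125 family is the vertebrate kin of lin-4, the worm miRNA that times larval development, and its genes sit beside let-7 and miR-99/100 genes in clusters that many animals share. In mammals miR-125b and miR-125a are known for their roles in blood stem cells and in neurons, and the miR-99/100 family for repressing the growth kinase mTOR.

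The mature sequences are shown because they fix what a count can tell apart, with the seed, bases 2 to 8 from the 5′ end, in capitals.
miR-99a-5p: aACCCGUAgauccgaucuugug
miR-100-5p: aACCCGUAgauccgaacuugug
miR-99b-5p: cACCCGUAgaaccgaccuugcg
miR-125a-5p: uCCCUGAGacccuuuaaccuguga
miR-125b-5p: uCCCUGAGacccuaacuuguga
The 3 members of the miR-99/100 family shared the seed ACCCGUA, which no other miRNA of the table carried. Both miR-125 members carried CCCUGAG, as did miR-351-5p. Counted from the 5′ end, miR-99a-5p and miR-100-5p differed by U16A alone, and miR-99a-5p and miR-99b-5p by A1C, U11A, U16C and U21C. The authors' alignment allowed a mismatch, so a read with an error at base 16 could have been given to the other of miR-99a-5p and miR-100-5p. How many reads this concerned could not be measured from the counts.

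In RefSeq's GRCr8 assembly, which named 4 of the 5 members by mature sequence, the genes lay in 3 clusters, all on the plus strand. Mir99b (chr1:67350064-67350133) and Mir125a (chr1:67350675-67350759) flanked Mirlet7e, with 95 bases between Mir99b and Mirlet7e and 353 between Mirlet7e and Mir125a. Mir100 (chr8:50798295-50798374) shared chromosome 8 with Mir125b1 (chr8:50850036-50850122). Mir99a (chr11:29687392-29687472) shared chromosome 11 with the second miR-125b gene, whose mature 5p product was annotated at chr11:29732588-29732609. Mature miR-125b-5p has the same sequence from both of its genes, so its count is their sum. The 3p products of these genes, cut from the other strand of each hairpin, differ and are in the table for all 6 hairpins. The let-7 neighbours were not analysed here.

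The unit of level below is CPM, the count of a miRNA over the sample's total in the table, times 1e+06. Totals ran from 315550 to 10571766 with a median of 2856968, and every member was counted in every sample used. The lowest count of any member in any sample was 127, for miR-100-5p. Most organ labels matched marker miRNAs. The nervous list (3 of 3 in the table) was highest in brain at a median summed level of 85498 CPM. The liver list (2 of 2) was highest in liver at 238930 CPM, and the striated muscle list (3 of 3) in skeletal muscle at 128423 CPM. The heart list (2 of 2) was highest in heart at 2399 CPM, the smooth muscle list (2 of 2) in uterus at 444891 CPM, and the germ cell list (4 of 4) in testis at 81767 CPM. Lists of blood lineages (4 of 4) and of red cells (3 of 3) were highest in spleen at 50953 and 110113 CPM, and those of epithelium (3 of 3) and endothelium (1 of 1) in lung at 9496 and 17444 CPM. A list named for pancreas (3 of 3), an organ not sampled, was highest in adrenal gland at 5163 CPM. No list was highest in thymus or kidney. The labels of thymus, kidney and adrenal gland thus had no list of their own to check them.

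Libraries of some sequencing lanes, as named in the study's sample table, stood apart for the members. In lane 3 (38 samples) the 5 members lay above the mean of their own group of organ, age and sex by 0.45 to 0.86 on the log2 scale on average. The samples above their group mean in this lane numbered 33 for miR-99a-5p, 32 for miR-99b-5p, 33 for miR-100-5p, 34 for miR-125a-5p and 33 for miR-125b-5p. In lane 8 (40 samples) the mean deviations were -0.45, -0.88, -1.09, -0.43 and -0.43 for miR-99a-5p, miR-99b-5p, miR-100-5p, miR-125a-5p and miR-125b-5p. Not 1 of the 40 lane 8 samples lay above its group mean for miR-99b-5p or miR-100-5p. The median miRNA deviated by 0.07 in lane 3 and by 0.03 in lane 8. The members also moved together within groups: all 5 lay on the same side of their group means in 207 of the samples used, 107 above and 100 below. Each test of age, sex or organ below was therefore refitted with lane as a factor, and also, as an alternative chosen after seeing the data, without lanes 3 and 8. The organ orders, the ratios within samples and the most-alike miRNAs have no lane term, and were only computed again on the 240 samples outside lanes 3 and 8.

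**Figure D1:**
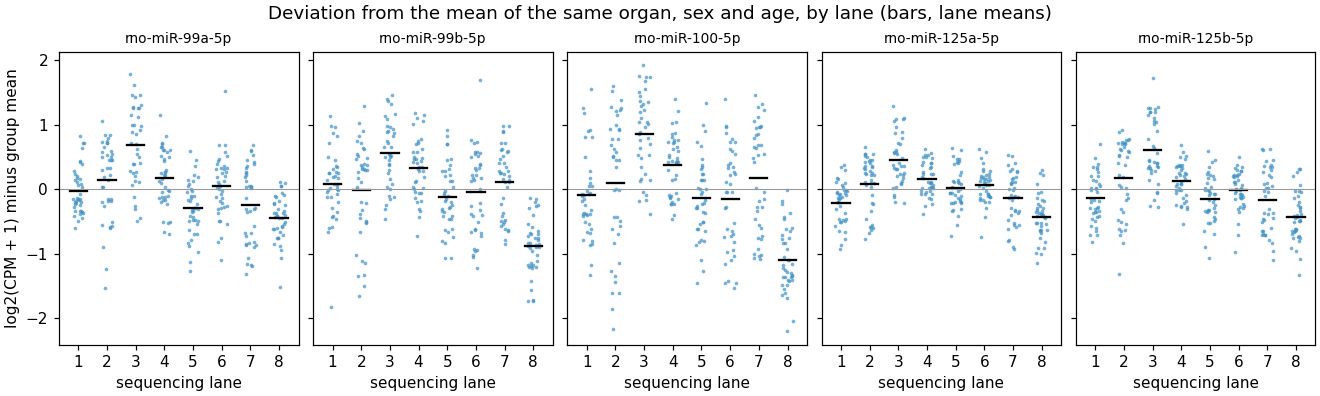
Deviation of log2(CPM+1) from the mean of the sample's organ, age and sex group, for each of the 5 members, by sequencing lane; points are samples and bars lane means. Lane 3 sits above 0 and lane 8 below 0 for all 5 members, with miR-100-5p farthest, at 0.86 and -1.09.

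The spread between like samples was wide for most members. The standard deviation of log2(CPM+1) within groups was 0.88 for miR-100-5p, 0.67 for miR-99b-5p, 0.59 for miR-99a-5p, 0.51 for miR-125b-5p and 0.42 for miR-125a-5p. Among the 460 miRNAs whose mean count reached 10, the median was 0.39, and miR-100-5p stood at percentile 97.6 and miR-125a-5p at 59.6. Of their 3p partners, miR-125b-2-3p had a standard deviation of 0.20 (percentile 1.52), miR-99a-3p of 0.27 (12.8), miR-99b-3p of 0.38 (43.7), miR-125b-1-3p of 0.39 (49.6) and miR-125a-3p of 0.41 (56.5), the last close to the 0.42 of miR-125a-5p. The mean count of miR-100-3p, at 7.77, was too low for this comparison. The widest organ and age was liver at week 6 for miR-100-5p, where 8 samples ran from 282 to 4022 CPM, a 14.3-fold range.

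All 5 members were abundant, and together they made up a median of 2.77% of a sample's counts (0.344% to 15.2%). Brain had the highest median share at 7.497% and thymus the lowest at 0.926%. Small RNA libraries capture different sequences with unequal yield, so levels are compared between organs for each member and not between members as numbers of molecules. miR-99b-5p ran from 1271 to 50615 CPM with a median of 11151. miR-125a-5p, from the same cluster, ran from 936 to 33818 with a median of 7588 CPM. miR-125b-5p had a median of 2726 CPM (517 to 40071), miR-100-5p of 2412 (109 to 36710) and miR-99a-5p of 1682 (108 to 11136).

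Brain was the top organ for 4 of the members (5 without lanes 3 and 8) by the median over all ages, and thymus the last for 4 (4 again). At week 6 testis and not brain had the highest median for miR-99a-5p, miR-99b-5p and miR-100-5p, with brain at 1846, 11728 and 2841 CPM, and at week 21 it had the highest for miR-100-5p. By edgeR's test of organ pairs at week 6, brain was called higher than 1, 0 and 0 organs for miR-99a-5p, miR-99b-5p and miR-100-5p. It was called lower than 5, 5 and 4 for these 3 members. The lower counts were 3, 0 and 1 with lane as a factor, 5, 0 and 0 without lanes 3 and 8, 1, 0 and 1 with library size only and 4, 0 and 1 by DESeq2. The higher counts were 1, 1 and 4, then 1, 1 and 2, then 3, 1 and 4, and 1, 1 and 3 in the same order, so for miR-99b-5p and miR-100-5p the place of brain at week 6 depended on the fit. Of the 7 brain samples of week 6, 5 were in lane 8, and the 2 others had 1567 and 2769, 19881 and 30452, and 4985 and 12141 CPM of these 3 members. The part of the lane in the week 6 levels was not tested apart from the scaling. At week 21 edgeR's test also called brain lower than 2 organs for miR-99a-5p. At week 104 it called brain lower than 3 organs for miR-99a-5p and 2 for miR-99b-5p. With library size only these counts were 0, 0 and 0. For miR-125a-5p at week 104 brain was called higher than 3 organs, and than 9 with library size only. So the place of brain rested on the scaling at these ages too. miR-125a-5p had a median of 22746 CPM in brain (12073 to 33818, n = 31), then 12517 in lung, 11465 in adrenal gland, 10179 in heart, 9749 in testis, 8183 in uterus, 7750.3 in kidney, 6188 in spleen, 3949 in skeletal muscle, 3783 in liver and 1577 in thymus (936 to 15891, n = 32). Going down this order, only the steps from brain to lung and from spleen to skeletal muscle were larger than the larger standard deviation of the organs compared. miR-125b-5p had a median of 12660.3 CPM in brain (6776 to 40071), 5565 in testis, 5214 in heart, 3943 in uterus, 2807 in lung, 2738 in skeletal muscle, 2191 in spleen, 1978 in liver, 1813 in adrenal gland, 1534 in kidney and 1048 in thymus (517 to 8494). For this member only the step from brain to testis exceeded the spread.

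The orders by median of the miR-99/100 family were as follows. miR-99b-5p was highest in brain at a median of 25279 CPM, followed by adrenal gland at 19691, lung at 18813, kidney at 15319, heart at 13291, uterus at 12312, testis at 11586, spleen at 9918, skeletal muscle at 6139, liver at 5209 and thymus at 4697. miR-100-5p had medians of 9335 CPM in brain, 6878 in testis, 6453 in heart, 4274 in uterus, 2879 in lung, 2839.8 in skeletal muscle, 2111 in spleen, 1338 in kidney, 1335 in thymus, 1269 in adrenal gland and 668 in liver. miR-99a-5p, with its 1 base of difference from miR-100-5p, was highest in testis at 2979 CPM and then in brain at 2829 (in brain at 3075 and then in testis at 2942 without lanes 3 and 8), skeletal muscle at 2446, uterus at 2360, liver at 1997, heart at 1988, lung at 1479, spleen at 1239, kidney at 899, adrenal gland at 870.03 and thymus at 334. For these 3 members 0 of 10 steps between neighbours in the order exceeded the spread over samples. Liver thus stood last for miR-100-5p and in the middle for miR-99a-5p.

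**Figure D2:**
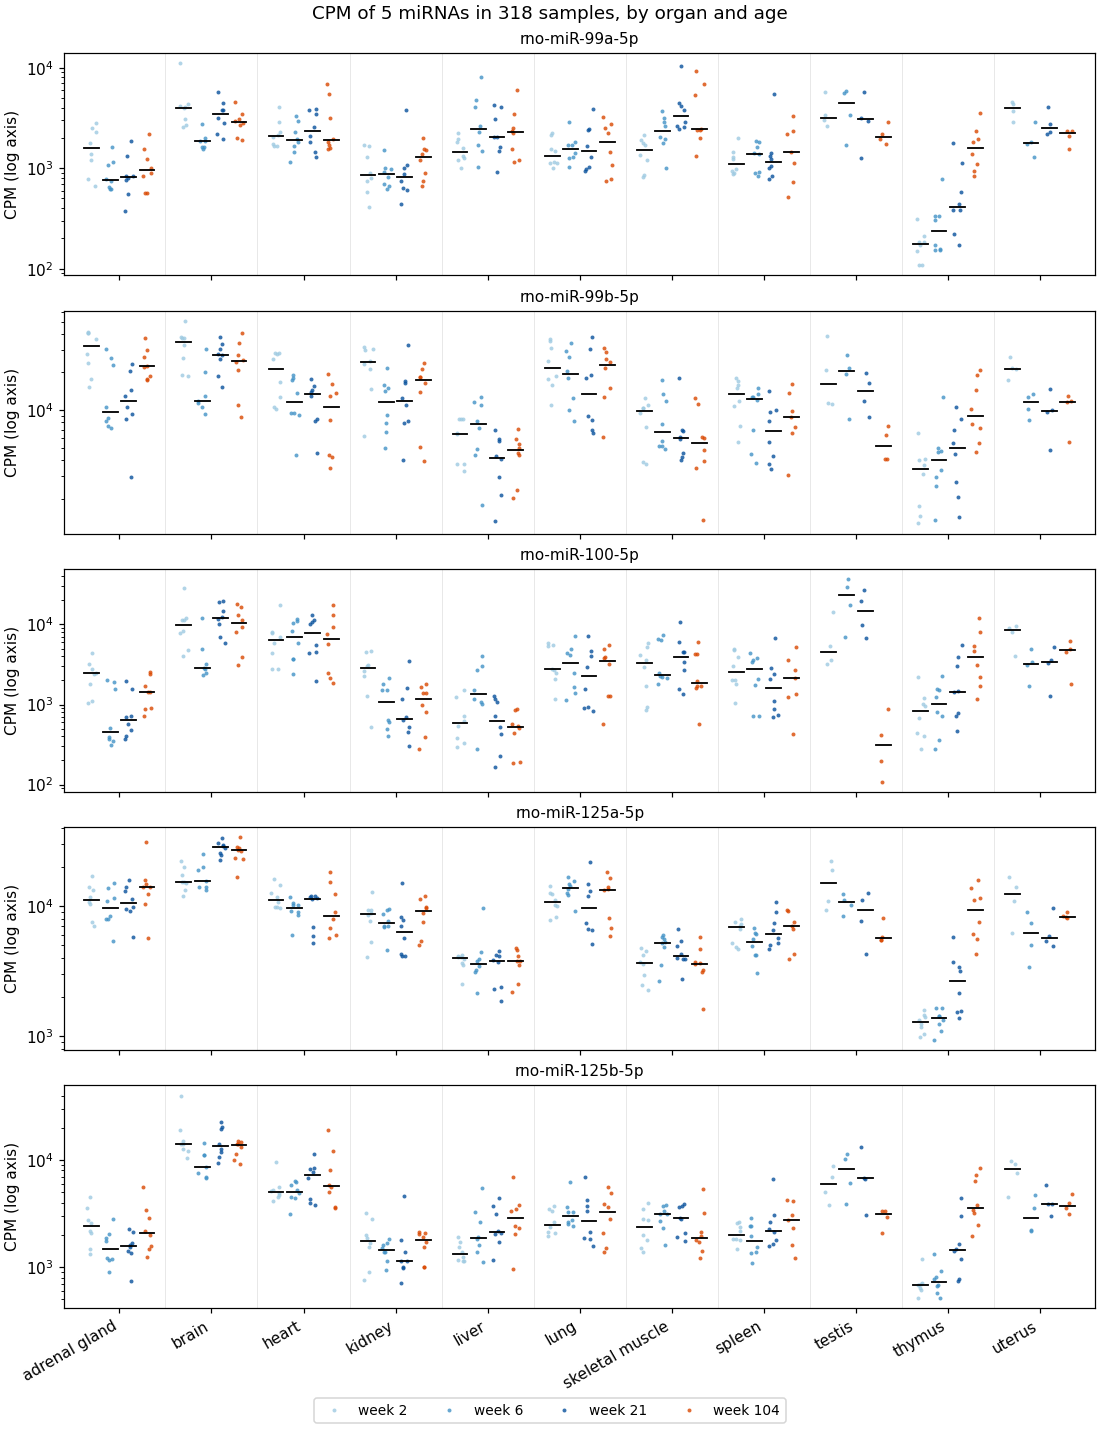
CPM on a log axis of the 5 members by organ and age (weeks 2, 6, 21 and 104); points are samples, both sexes together, and bars medians. Over all ages brain has the highest median for every member except miR-99a-5p (for all 5 without lanes 3 and 8). At week 6, where 5 of 7 brain samples are in lane 8, testis medians are above it for miR-99a-5p, miR-99b-5p and miR-100-5p. At week 21 the testis median is above it for miR-100-5p. At week 104 edgeR's test calls brain lower than 3 organs for miR-99a-5p and 2 for miR-99b-5p, or 0 and 0 with library size only. Thymus medians are highest at week 104, and testis miR-100-5p drops to a median of 309 CPM at week 104.

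To ask which organs differ at each age, every pair of organs was compared by edgeR's quasi-likelihood test over the whole table. A pair was called at a Benjamini-Hochberg adjusted p under 0.05 and at least a 2-fold difference. Of 275 tests of a member and an organ pair, 134 were called at week 2, 130 at week 6, 129 at week 21 and 136 at week 104. Among all miRNAs the shares called were 52.5%, 52.7%, 52.1% and 47.2% at these ages, so the members differed between organs about as often as any miRNA. miR-100-5p was called in 36 of its 55 pairs at week 104, and miR-99b-5p in 19 of 55 at week 6. At week 21 the widest pair of miR-99a-5p was skeletal muscle over thymus, with a log2 difference of 3.41 (SE 0.42, edgeR's quasi-likelihood test, Benjamini-Hochberg adjusted p = 1.87e-11). All 8 skeletal muscle samples at that age lay between 2471 and 10397 CPM and all 8 thymus samples between 172 and 1773. For miR-100-5p the widest pair was liver against testis, at -3.67 (SE 0.58, edgeR's quasi-likelihood test, Benjamini-Hochberg adjusted p = 6.57e-08). The 8 liver samples lay between 164 and 1271 CPM and the 4 testis samples between 6756 and 26700, without overlap. The widest pairs of the other members had log2 differences of 2.43 for miR-125a-5p (adrenal gland over thymus), 2.12 for miR-125b-5p (heart over thymus) and 2.06 for miR-99b-5p (kidney over liver), and in each the first organ also had the higher CPM median. In this fit brain was called higher than 5 organs for miR-125a-5p and 6 for miR-125b-5p at week 21. With library size only it was called higher than 10 for each, so the place of brain among these pairs depended on the scaling.

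The adult and juvenile rats, week 21 against week 2, were compared within each organ as the mean over the sexes, which asks what changes during maturation. Members rose far more often than they fell in this fit, and 8 of the 16 rises lay in thymus and skeletal muscle. Of 55 tests of a member and an organ, 16 were higher at week 21, beside 21.0% of all miRNA tests, and 3 were lower, beside 25.3%. This split depended on the scaling of the samples. With library size only in place of edgeR's TMM factors, 6 were higher and 11 lower, since that scaling moves the median miRNA by -0.06 (thymus) to -0.83 (skeletal muscle) on the log2 scale. Of the 25 called age tests of both comparisons, 13 stayed called under it, 11 missed the threshold and 1 changed sign, and of all 110 age tests 24 changed sign. Without lanes 3 and 8 the counts were 14 and 5, with lane as a factor 16 and 4, and by DESeq2 14 and 3. Shares over all miRNAs were taken in the TMM fit of all lanes only. None stands beside the counts under alternatives, here or below. Leaving out replicate 1, 2 or 4 of every group moved the 3 lower calls to 5, 0 or 1. miR-99a-5p and miR-125b-5p rose in 5 organs each, miR-100-5p and miR-125a-5p in 3 each, and miR-99b-5p in 0 of 11. For miR-99b-5p edgeR's test also had 0 organs higher at an unadjusted p under 0.05, DESeq2 called 0 higher, and 1 organ was lower.

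In thymus, the organ where T cells mature, 4 of the 5 members rose, beside 13.3% of all miRNAs. miR-99a-5p had 108 to 309 CPM at week 2 with a median of 178 (n = 8), and 172 to 1773 with a median of 410.3 at week 21 (n = 8). The groups overlapped, and 7 of 8 adult samples lay above the juvenile median. The log2 difference was 1.76 (SE 0.35, edgeR's quasi-likelihood test, Benjamini-Hochberg adjusted p = 0.000114). miR-125b-5p went from a median of 677 CPM (517 to 1193) to 1436 (739 to 4438), and miR-125a-5p from 1288 (979 to 1595) to 2662 (1375 to 5744). For both, all 8 adult samples lay above the juvenile median although the ranges overlapped. Their log2 differences were 1.33 (SE 0.26, adjusted p = 9.10e-05) and 1.16 (SE 0.22, adjusted p = 8.48e-05) by edgeR's quasi-likelihood test, Benjamini-Hochberg adjusted. miR-100-5p went from a median of 818 CPM (275 to 2180) to 1448 (463 to 5572), with 5 of 8 adult samples above the juvenile median. Its log2 difference of 1.29 (SE 0.47) passed edgeR's quasi-likelihood test at a Benjamini-Hochberg adjusted p = 0.0357. That call was lost with lane as a factor (1.02, adjusted p = 0.0531), without lanes 3 and 8 (1.06, adjusted p = 0.0835), with library size only (1.24, adjusted p = 0.0551), with the replicate number as a block (1.08, adjusted p = 0.0634), without replicate 2 (1.08, adjusted p = 0.0504) and without replicate 4 (1.12, adjusted p = 0.174), by the same edgeR test and Benjamini-Hochberg adjustment. The median log2 difference was 1.29 over the members and -0.03 over all miRNAs. In whole organs a larger share of the cells that hold a miRNA and more of it per cell cannot be told apart. The endothelial marker miR-126a-3p, the 1 miRNA of its list, moved from a median of 1018 CPM (817 to 1783) to 1995 (933 to 4149), and the blood lineage list (4 of 4, led by miR-142-5p) from 43847 CPM (36269 to 56687) to 41064 (30841 to 49565). Their part in the result was not tested.

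In skeletal muscle 4 of the 5 members rose, beside 25.2% of all miRNAs. miR-99a-5p had 818 to 2125 CPM at week 2 with a median of 1529 (n = 8), and 2471 to 10397 with a median of 3318 at week 21 (n = 8). All 8 adult samples lay above all 8 juvenile ones. The log2 difference was 2.30 (SE 0.32, edgeR's quasi-likelihood test, Benjamini-Hochberg adjusted p = 9.98e-08), and it passed under every alternative, at 1.45 with library size only. miR-125a-5p (1.18, SE 0.19, adjusted p = 1.32e-06, 7 of 8 samples above the juvenile median), miR-125b-5p (1.08, SE 0.22, adjusted p = 4.81e-05, 5 of 8) and miR-100-5p (1.28, SE 0.43, adjusted p = 0.0109, 5 of 8) passed edgeR's quasi-likelihood test, Benjamini-Hochberg adjusted. The CPM of these 3 moved less, with medians of 3634 and 4117 for miR-125a-5p, 2391 and 2856 for miR-125b-5p, and 3275 and 3938 for miR-100-5p. With library size only their log2 differences were 0.33, 0.20 and 0.39 and none passed. miR-100-5p also lost its call without replicate 1 (0.85, edgeR's quasi-likelihood test, Benjamini-Hochberg adjusted p = 0.128). The striated muscle list (3 of 3, led by miR-133a-3p) went from 71420 CPM at week 2 (55383 to 100688) to 129364 at week 21 (108134 to 156220), and its part was not tested.

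Brain showed a rise of miR-125a-5p alone among the members in this fit, beside 32.3% of all miRNAs higher in that organ. Its level was 12073 to 22421 CPM at week 2 with a median of 15343, and 22746 to 33364 with a median of 28590 at week 21, 8 samples each. Every adult sample exceeded every juvenile one. The log2 difference was 1.21 (SE 0.15, edgeR's quasi-likelihood test, Benjamini-Hochberg adjusted p = 1.23e-07), and it passed under every alternative. The other 4 members had positive log2 differences that missed the threshold, and 3 of the 5 members' signs turned with library size only. At week 104 the median of miR-125a-5p was 26832 CPM (16724 to 33818). At week 6 it was 15685, with 5 of 7 samples in lane 8 and the 2 others at 13395 and 25249 CPM.

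In liver, heart, lung and spleen the rises were of miR-99a-5p, miR-125b-5p or both. Liver had 2 higher, beside 16.4% of all miRNAs: miR-125b-5p went from 1320 CPM (1138 to 1924) to 2139 (1156 to 4461), and miR-99a-5p from 1464 (1001 to 2217) to 2030 (909 to 4235). The ranges overlapped and 7 of 8 adult samples lay above the juvenile median for each. Their log2 differences were 1.28 (SE 0.26, adjusted p = 8.60e-05) and 1.06 (SE 0.30, adjusted p = 0.00396) by edgeR's quasi-likelihood test, Benjamini-Hochberg adjusted, and miR-99a-5p lost its call with library size only, at 0.63. Heart had the same 2 higher, beside 27.3% of all miRNAs, at 1.03 for miR-125b-5p (SE 0.24, adjusted p = 0.000459) and 0.85 for miR-99a-5p (SE 0.27, adjusted p = 0.00703) by edgeR's quasi-likelihood test, Benjamini-Hochberg adjusted, each in 5 of 8 samples. Neither heart call held with library size only (0.32 and 0.15), and miR-99a-5p lost its call by DESeq2 (0.69) and without replicate 1 (0.68). Lung had miR-99a-5p higher, beside 24.0% of all miRNAs, at 0.64 (SE 0.27, edgeR's quasi-likelihood test, Benjamini-Hochberg adjusted p = 0.0472) with 4 of 8 samples above the juvenile median. It fell short with lane as a factor (0.33), without lanes 3 and 8 (0.46), by DESeq2 (0.55), with library size only (0.31), and without replicate 1 (0.61), 3 (0.48) or 4 (0.55). Spleen had miR-125b-5p higher, beside 18.0% of all miRNAs, at 0.63 (SE 0.23, edgeR's quasi-likelihood test, Benjamini-Hochberg adjusted p = 0.0267) in 5 of 8 samples. That call was lost without lanes 3 and 8 (0.48), without replicate 2 (0.55) and with library size only (0.35). The RNA integrity number in the study's sample table, on a scale up to 10, was 2.2 to 5.1 in the 8 spleen samples of week 2 and 7.8 to 9.9 in those of week 21, so RNA integrity and age cannot be told apart in this comparison.

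The 3 falls were in adrenal gland and kidney and concerned the miR-99/100 family. Adrenal gland had 2 lower, beside 24.8% of all miRNAs. miR-100-5p was at 1054 to 4389 CPM at week 2 with a median of 2459, and at 373 to 1961 with a median of 639 at week 21, and miR-99b-5p at 15252 to 41685 (median 32227) and 2951 to 23147 (median 11746). The ranges overlapped, and all 8 adult samples lay below the juvenile median for each. The log2 differences were -1.01 (SE 0.38, adjusted p = 0.0295) and -0.78 (SE 0.30, adjusted p = 0.0349) by edgeR's quasi-likelihood test, Benjamini-Hochberg adjusted. miR-99b-5p missed the threshold with lane as a factor (-0.69, adjusted p = 0.0717) and without replicate 1 (-0.51), 2 (-0.88) or 4 (-0.90), and miR-100-5p without replicate 2 (-0.96) or 4 (-0.82), in the same edgeR test, Benjamini-Hochberg adjusted. Kidney had miR-100-5p lower, beside 24.2% of all miRNAs, from a median of 2822 CPM (524 to 4639) to 666 (304 to 3481), with 7 of 8 adult samples below the juvenile median. Its log2 difference was -1.06 (SE 0.40, edgeR's quasi-likelihood test, Benjamini-Hochberg adjusted p = 0.0288), and it missed without replicate 2 (-0.81) or 3 (-0.78). Testis had miR-100-5p higher, beside 21.4% of all miRNAs, at 1.495 (SE 0.59, edgeR's quasi-likelihood test, Benjamini-Hochberg adjusted p = 0.0407) in 4 of 4 samples. Testis libraries of weeks 2 and 21 shared 0 lanes, so a fit with lane joins these ages only through the lanes of weeks 6 and 104. With lane as a factor the value was -0.34, without lanes 3 and 8 it was 0.66, with library size only 1.25, and without replicate 2, 3 or 4 it was 1.47, 1.08 or 1.54, and none of these passed.

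Whether the age difference itself differed between organs was tested in a single fit of weeks 2 and 21. Of 275 tests of a member and an organ pair 72 were called by edgeR's quasi-likelihood test, beside 31.6% of all miRNA tests, and 43 without replicate 2. The share was near or below that of all miRNAs. Skeletal muscle had the larger rise in 9 of its 10 pairs for miR-99a-5p (7 with library size only), in 8 for miR-125a-5p (2, and the smaller rise in 1), in 5 for miR-100-5p (2) and in 4 each for miR-125b-5p (0, and the smaller rise in 1) and miR-99b-5p (0), so that apart from miR-99a-5p most of these pairs depended on the scaling. These counts were 8, 7, 3, 4 and 3 without lanes 3 and 8, and with lane as a factor 10, 7, 5, 6 and 3. Thymus had the larger rise in 6 pairs for miR-99a-5p (8 with library size only, 7 with lane as a factor, 5 without lanes 3 and 8), in 5 for miR-125a-5p (9, 6 and 3 under the same alternatives) and in 4 for miR-125b-5p (5, 3 and 1). In the same order of alternatives, brain had it in 7 pairs for miR-125a-5p (6, 7 and 7), liver in 6 for miR-125b-5p (4, 7 and 7), and testis in 4 for miR-100-5p (3, 1 and 0). Adrenal gland had the smaller rise in 3 pairs for miR-100-5p (5, 1 and 1), and kidney in 4 (3, 6 and 5).

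Aged and adult rats, week 104 against week 21, were compared in the same way to ask what changes late in life. Of the 55 tests 5 were higher, beside 7.38% of all miRNA tests, and 1 was lower, beside 8.66%, and all 6 lay in testis, thymus and uterus. With library size only 4 were higher and 3 lower, and with lane as a factor 8 were higher, the 3 added ones being miR-99b-5p in adrenal gland (0.85), miR-99a-5p in testis (1.19) and miR-100-5p in uterus (1.19). Without replicate 3 the higher count was 3. Here library size only moved the median miRNA by -1.24 in testis, 0.35 in thymus and -0.46 in uterus.

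In testis miR-100-5p fell to a small part of its adult level. The 4 samples had 14364, 3218, 3604 and 5331 CPM at week 2 and 29570, 36710, 6999 and 17746 at week 6. At week 21 they had 26700, 9740, 19691 and 6756 CPM, and at week 104 they had 422, 879, 196 and 109. Every aged testis thus lay below every testis of the other 3 ages. The log2 difference between weeks 104 and 21 was -4.07 (SE 0.65, edgeR's quasi-likelihood test, Benjamini-Hochberg adjusted p = 3.33e-05), lower in 4 of 4 samples and beside 24.8% of all miRNAs lower in testis. It passed under every alternative that kept testis, at -5.29 with library size only, -3.84 with lane as a factor and -3.75 without lanes 3 and 8. The other 4 members also had lower CPM medians at week 104 than at week 21. CPM is a share of the miRNA counts alone. The paper reports that testis libraries of adolescent and adult rats consisted mostly of piRNA, which it mapped apart, while most other libraries were mainly miRNA. A fall in CPM between these ages need therefore not be a fall among all small RNA reads. miR-99a-5p had medians of 3196, 4472, 3063 and 2054 CPM over the 4 ages, miR-125b-5p of 5994, 8181, 6769 and 3145, and miR-99b-5p of 16139, 20484, 14144 and 5208. All 4 aged samples of miR-99b-5p (4079 to 7544 CPM) lay below all 4 adult ones (8887 to 19517). In the TMM fit the log2 differences of these 3 were 0.76, -0.00064 and 0.04 and none was called, while with library size only they were -0.59, -1.34 and -1.36 and the last 2, miR-125b-5p and miR-99b-5p, were called lower, so whether these members fell rests on the scaling. miR-125a-5p was called higher at week 104, beside 25.8% of all miRNAs, at 0.87 (SE 0.30, edgeR's quasi-likelihood test, Benjamini-Hochberg adjusted p = 0.0201), yet its CPM medians were 9360 and 5655 and all 4 aged samples lay below the adult median. Its direction turned with library size only (-0.52), and the call was lost without replicate 3 (0.73) or 4 (0.56), so the sign rests on the scaling.

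Markers of germ cells also fell in testis between weeks 21 and 104, after a rise from week 2 to week 6. The germ cell list, 4 of 4 miRNAs of which were in the table, summed to 4150, 3903, 4677 and 6084 CPM in the samples of week 2, and to 196506, 182152, 174143 and 163501 at week 6. At week 21 the sums were 185120, 176104, 183783 and 157451 CPM, with miR-34c-5p the most abundant at a median of 133245. At week 104 they were 3197, 1621, 109.7 and 136, with miR-743b-3p the most abundant. The smooth muscle list (2 of 2, led by miR-143-3p) went from a median of 169290 CPM (138460 to 220316) to 39919 (17615 to 58310) and the red cell list (3 of 3, led by miR-486) from 15885 (10979 to 22827) to 1048 (895 to 1816). At week 2, with the germ cell list at 3903 to 6084 CPM, miR-100-5p was at 3218 to 14364 CPM, above all 4 aged samples. The part of these cells in the fall of miR-100-5p was not tested.

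Thymus went on from its adult rise. At week 104 the 8 samples had 4313 to 15891 CPM of miR-125a-5p with a median of 9406, against 1375 to 5744 at week 21. miR-125b-5p had 1938 to 8494 with a median of 3579 CPM, against 739 to 4438, and miR-99a-5p had 829 to 3549 with a median of 1589, against 172 to 1773. All 8 aged samples lay above the adult median for each of the 3, with some overlap of the ranges. The log2 differences were 1.39 (SE 0.22, adjusted p = 3.61e-06), 1.01 (SE 0.26, adjusted p = 0.00156) and 1.24 (SE 0.34, adjusted p = 0.00333) by edgeR's quasi-likelihood test, Benjamini-Hochberg adjusted, beside 19.6% of all miRNAs higher in thymus. These 3 and the week 21 rises of the same 3 passed under every alternative. The medians of miR-100-5p were 1448 and 3882 CPM and those of miR-99b-5p 4983 and 8943, which missed the threshold in the edgeR fit, while DESeq2 called miR-99b-5p at 0.95. Over the 4 ages the median of miR-125a-5p in thymus was 1288, 1369, 2662 and 9406 CPM.

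Several marker lists moved in the aged thymus as well. The blood lineage list (4 of 4, led by miR-142-5p) went from a median of 41064 CPM (30841 to 49565) at week 21 to 24182 (11436 to 28990) at week 104, without overlap. The endothelial marker miR-126a-3p went from 1995 (933 to 4149) to 6490 (3132 to 7340) CPM, the red cell list (3 of 3, led by miR-486) from 1576 (1148 to 5278) to 15088 (6243 to 93486), and the epithelial list (3 of 3, led by miR-141-3p) from 4286 (2993 to 5007) to 7533 (768 to 10428). The list named for pancreas (3 of 3, led by miR-375-3p) went from 39.8 (25.2 to 45.3) to 483 (69.1 to 596) CPM. The nervous list (3 of 3, led by miR-128-3p) went from 3882 (2394 to 6399) to 1265 (350 to 3856) CPM. Their part in the members' rise was not tested.

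Uterus had miR-125a-5p higher at week 104, beside 3.57% of all miRNAs. The 4 adult samples ran from 4904 to 9623 CPM with a median of 5649 and the 4 aged ones from 8141 to 9018 with a median of 8289. The ranges overlapped, and all 4 aged samples lay above the adult median. The log2 difference was 0.93 (SE 0.29, edgeR's quasi-likelihood test, Benjamini-Hochberg adjusted p = 0.0361). The call was lost without lanes 3 and 8 (0.88, adjusted p = 0.284), without replicate 2 (0.91) or 3 (0.99) and with library size only (0.39), in the same edgeR test, Benjamini-Hochberg adjusted.

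**Figure D3:**
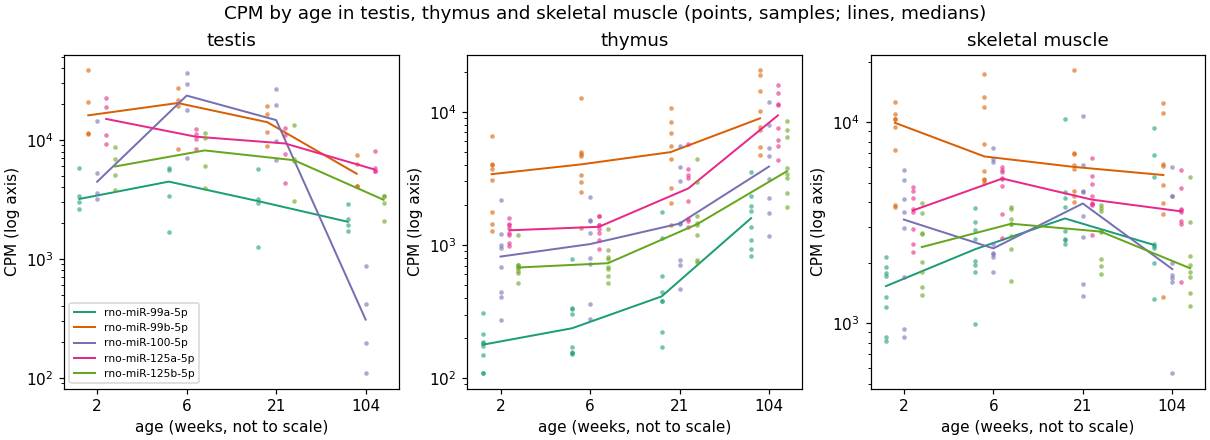
CPM on a log axis of the 5 members in testis, thymus and skeletal muscle at weeks 2, 6, 21 and 104; points are samples, lines join medians, and the age axis is not to scale. Testis miR-100-5p falls from a median of 14715 CPM at week 21 to 309 at week 104, and thymus miR-125a-5p goes from 1288 at week 2 to 9406; the testis miR-125a-5p medians fall in CPM while edgeR's TMM fit puts that member higher.

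The 2 genes of miR-125b can be told apart by their 3p products, which are shown because they differ within the seed.
miR-125b-1-3p: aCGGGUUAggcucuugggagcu
miR-125b-2-3p: aCAAGUCAggcucuugggaccu
The median over all samples was 407 CPM for the chromosome 11 product miR-125b-2-3p and 39.5 CPM for the chromosome 8 product miR-125b-1-3p, and the yields of these sequences may differ, so the values do not rank the products as numbers of molecules. From week 2 to week 21 miR-125b-1-3p fell in 10 of 11 organs by edgeR's test, beside 25.3% of all miRNA tests lower and 21.0% higher in this comparison, and in 10 by DESeq2, and was negative in thymus, the remaining organ, at -0.19. It was lower in 10 organs with library size only, in 8 with lane as a factor and in 9 without lanes 3 and 8. In kidney it went from a median of 36.6 CPM (24.6 to 49.3) to 9.96 (4.75 to 15.6), and every adult sample lay below every juvenile one. The log2 difference there was -1.66 (SE 0.16, edgeR's quasi-likelihood test, Benjamini-Hochberg adjusted p = 8.04e-11, lower in 8 of 8 samples). The chromosome 11 product miR-125b-2-3p rose in 6 organs and fell in 2 by the same test, but in 1 and 3 with library size only, where 3 of the calls changed sign. Its neighbour miR-99a-3p rose in 7 organs and fell in 1, in testis, with 3 and 2 under library size only. In skeletal muscle miR-99a-3p went from 11.5 to 21.3 CPM at week 2 (median 17.4) to 31.0 to 73.2 at week 21 (median 42.7), without overlap, as miR-99a-5p did.

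The ratio of the products of the 2 genes within a sample does not depend on scaling. The log2 ratio of miR-125b-1-3p to miR-125b-2-3p, with 0.5 added to each count, had a median of -3.33 over the samples used and lay above 0 in 3 of them, all thymus. Its median was lower at week 21 than at week 2 in 11 of 11 organs, by -0.36 in testis to -2.19 in liver, and in 5 organs every adult sample lay below every juvenile one. It was lower in 11 of 11 without lanes 3 and 8 too, by -0.45 in adrenal gland to -2.51 in liver. For this ratio lane 7 stood apart most, with a mean deviation from the group means of -0.46 and 4 of 40 samples above. In the samples outside lane 7, an alternative chosen after seeing the data, the week 21 median was below that of week 2 in 11 of 11 organs, by -0.02 in testis, where 2 of 4 adult samples were left, to -2.37 in liver. The next smallest was -0.52 in adrenal gland, so testis showed no clear change. In liver the medians were -4.63, -5.67, -6.82 and -7.23 at weeks 2, 6, 21 and 104. Liver miR-125b-1-3p had a median of only 5.72 CPM over all ages, in samples with a median total of 1040989. It had a count of 0 in 1 liver sample of week 104, so the size of the liver change rests on few counts. In thymus the medians were -0.14, -0.80, -1.66 and -2.17, and in skeletal muscle they went from -3.33 at week 2 to -5.00 at week 21 and -5.73 at week 104. Testis had -2.26, -2.59 and -2.62 at the first 3 ages and -6.08 at week 104 (-7.22 to -4.72), below all its younger samples. Between weeks 21 and 104 in testis, the chromosome 8 products miR-100-3p (-3.51, SE 0.55, adjusted p = 3.07e-05) and miR-125b-1-3p (-1.27, SE 0.37, adjusted p = 0.00788) fell by edgeR's quasi-likelihood test, Benjamini-Hochberg adjusted, with library size only too. The chromosome 11 products miR-99a-3p (2.45, SE 0.25, adjusted p = 2.67e-07) and miR-125b-2-3p (1.78, SE 0.22, adjusted p = 2.31e-06) rose by the same edgeR test, Benjamini-Hochberg adjusted, also with library size only (1.07 and 0.46). The 4 aged samples of miR-125b-2-3p ran from 629 to 732 CPM and the 4 adult ones from 417 to 562, without overlap.

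**Figure D4:**
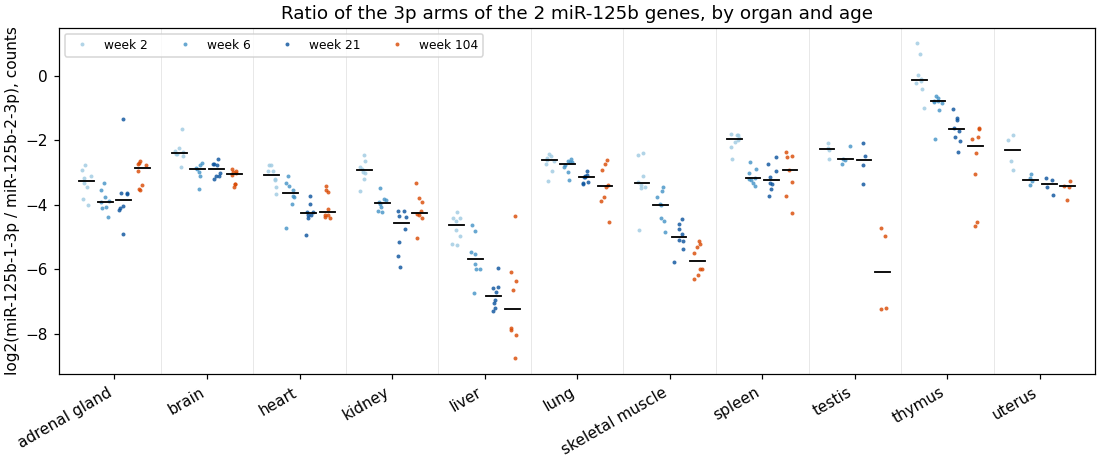
Log2 ratio of the counts of miR-125b-1-3p (chromosome 8) to miR-125b-2-3p (chromosome 11) by organ and age (weeks 2, 6, 21 and 104); points are samples and bars medians. The median is lower at week 21 than at week 2 in 11 of 11 organs, though in testis by only 0.02 without lane 7, and aged testis drops to -6.08.

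The near-identical pair miR-99a-5p and miR-100-5p, 1 from each of these clusters, also shifted against each other. Their log2 ratio had a median of -0.66 and lay above 0 in 86 samples. In liver it lay above 0 in 32 of 32 samples, and in brain and heart in 0 of 31 and 0 of 32. The week 21 median was above that of week 2 in 8 of 11 organs, with differences from -1.84 in testis to 1.67 in kidney, where the medians were -1.49 and 0.18. In skeletal muscle the medians were -1.13, -0.56, -0.09 and 0.52 over the 4 ages. Testis went from -0.47 to -2.40 and -2.31, then to 2.67 at week 104 (1.71 to 4.32), with all 4 aged samples above all 12 younger ones. Without lanes 3 and 8 the count of organs was again 8, with differences from -1.42 in testis to 1.64 in kidney, and the 4 aged testis samples lay above all 9 younger ones left.

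The members of the chromosome 1 cluster shifted too. The log2 ratio of miR-125a-5p to miR-99b-5p had a median of -0.59 and lay above 0 in 65 samples. Its week 21 median was above that of week 2 in 10 of 11 organs, from 0.12 in uterus to 1.45 in adrenal gland, with testis the exception at -0.68. It was above in 10 organs without lanes 3 and 8 as well. The ranges of the ages overlapped in every organ. In brain the medians were -1.23, 0.01 and 0.27 at weeks 2, 21 and 104. At week 6 the brain median was 0.39, but -0.42 in the 2 samples outside lane 8 (-0.57 to -0.27). miR-99b-3p fell from week 2 to week 21 in 6 organs by edgeR's test, beside 25.3% of all miRNA tests, and rose in 0, beside 21.0% (0 also at an unadjusted p under 0.05, and 0 by DESeq2), while miR-125a-3p rose in 1 organ and fell in 2, or 0 and 8 with library size only. The log2 ratio of miR-125b-5p to the sum of miR-99a-5p and miR-100-5p had a median of -0.52, and its week 21 median exceeded that of week 2 in 8 of 11 organs, or 7 without lanes 3 and 8.

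Males and females were compared within the 9 organs that both have. By edgeR's quasi-likelihood test 0 of 45 member tests were higher in males, beside 0.812% of all miRNA tests, and 0 in females, beside 0.577%. At an unadjusted p under 0.05 there was 1, and DESeq2 called 0. The unadjusted count was 0 with library size only, 6 by DESeq2, 7 with lane as a factor and 9 without lanes 3 and 8. The log2 differences of male over female ran from -0.10 (miR-100-5p in thymus) to 0.67 (miR-100-5p in adrenal gland, edgeR's quasi-likelihood test, Benjamini-Hochberg adjusted p = 0.174) and were positive in 37 of 45 tests, 38 with library size only and 41 with lane as a factor. Without lanes 3 and 8 the adrenal gland test of miR-100-5p was called at 1.27 (edgeR's quasi-likelihood test, Benjamini-Hochberg adjusted p = 0.0142). Whether the change from week 2 to week 21 differed between the sexes gave 0 of 45 calls in edgeR, beside 0.667% of all miRNA tests, with 6 at an unadjusted p under 0.05. DESeq2 called 3, all in adrenal gland, where the signed log2 change of males minus that of females was 2.08 for miR-99a-5p, 2.34 for miR-100-5p and 1.39 for miR-125b-5p. Without replicate 1 edgeR called 1.

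The miRNAs most like each member were ranked by Pearson's r of mean log2(CPM+1) over the 44 combinations of organ and age, among 455 others. These points share rats, lanes and the column totals, and are not independent. For miR-99a-5p the nearest were its own 3p product miR-99a-3p (r = 0.880), then miR-125b-2-3p of the same cluster (0.865) and miR-497-5p (0.622). miR-99b-5p was nearest to miR-99b-3p (0.856), miR-125a-3p (0.840) and miR-218a-5p (0.825). For miR-100-5p the first was miR-125b-1-3p (0.763), from its own chromosome, before miR-490-3p (0.662) and miR-676 (0.659). miR-125a-5p had miR-3102 (0.838), miR-125a-3p (0.821) and miR-218a-5p (0.806), and miR-125b-5p had miR-125b-2-3p (0.873), miR-99a-3p (0.787) and miR-346 (0.772). Each member thus had a product of its own cluster among its 3 nearest. Of these 15, 14 were kept without lanes 3 and 8. Among the members themselves r was highest for miR-99b-5p with miR-125a-5p (0.884), then miR-100-5p with miR-125b-5p (0.799) and miR-99a-5p with miR-125b-5p (0.784), the 3 pairs that share a cluster, and lowest for miR-99a-5p with miR-99b-5p (0.383).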

How the data were processed

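The deposited table holds counts per mature miRNA, which the authors made by trimming reads with fastp 0.23.2 and aligning them with Bowtie 1.3.1 to rat sequences of build rn7, per the submitters' processing notes. The paper names miRBase as the reference for miRNAs and rn7 for the genome. No further low-count filter was applied. CPM used column totals, and log values added 1 CPM. Age and sex were tested with edgeR 4.0.16 (TMM, quasi-likelihood test) in R 4.3.3, 1 fit per organ on all 616 miRNAs, with Benjamini-Hochberg adjustment per contrast and calls at an adjusted p under 0.05. Organ pairs were fitted per age, and a call also needed a 2-fold difference. DESeq2 1.42.0 was the other tool. The other alternatives were library size only, only miRNAs whose mean count reached 10, the full 320 samples, lane as a factor, a replicate block, a 4-fold or no fold threshold, and leaving out each replicate, testis, spleen, or lanes 3 and 8, and for the 3p ratio lane 7. Fits were tested on simulated data. Summaries and figures used Python 3.11.15, numpy 2.4.6, pandas 2.3.3 and matplotlib 3.10.9. Named miRNAs were the members, their 3p partners, the 3 most alike to each member and the marker lists. The members and lists were chosen with earlier results of these data known.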

Additional observations from a re-analysis of the deposited data

Results flagged for a closer look

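The 5 members in 44 combinations of organ and age made 220 groups of values, and 28 of these had a sample farther from the others than Dixon's 95% limit. Chance flags about 1 in 20 groups of normally distributed values. The limit was applied to CPM without logs and with both sexes together, so this rate need not hold here. The members also share their samples: the 28 flags came from 15 samples, 1 in each of 15 combinations of organ and age. The flagged value was the highest in 27, and 13 of the 28 flags, from 5 samples, were in lane 3.

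For miR-99a-5p the samples that stood apart had 11136 CPM in brain at week 2, 2769 in brain at week 6, 1502 in kidney at week 6, 3827 in kidney at week 21, 2863 in lung at week 6, 10397 in skeletal muscle at week 21, 5461 in spleen at week 21 and 789.98 in thymus at week 6. For miR-99b-5p they had 32714 CPM in kidney at week 21, 18130.3 in skeletal muscle at week 21 and 12751 in thymus at week 6. For miR-100-5p they had 28193 CPM in brain at week 2, 12141 in brain at week 6, 17689 in heart at week 2, 3480.5 in kidney at week 21 and 6705 in spleen at week 21.

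For miR-125a-5p the highest samples were 31160 CPM in adrenal gland at week 104, 15097 in kidney at week 21, 9605 in liver at week 6 and 8116 in testis at week 104, and the 1 low sample was 2529 in liver at week 2. For miR-125b-5p they were 40071 CPM in brain at week 2, 9644 in heart at week 2, 4590.5 in kidney at week 21, 7027 in liver at week 104, 6267 in lung at week 6, 6682 in spleen at week 21 and 1193 in thymus at week 2. Kidney at week 21 held such a sample for all 5 members, and brain at week 2 and spleen at week 21 for 3 each.

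The change from week 2 to week 21 differed between organs, by edgeR's test of the difference, in 17 of 55 organ pairs for miR-99a-5p, 5 for miR-99b-5p, 12 for miR-100-5p, 23 for miR-125a-5p and 15 for miR-125b-5p. Over all miRNAs 31.6% of these tests were called, so only the count of miR-125a-5p lay above that share.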

How the results depend on the processing

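Of 163 counts under alternatives, 145 stayed within 1.5 times the count reported. Of the 15 most-alike miRNAs, 13 were kept with log2(CPM+10), 10 with Spearman's rho and 14 without lanes 3 and 8. Brain at week 6 was called lower than 5 organs for miR-99b-5p and 4 for miR-100-5p, but than 0 and 0 without lanes 3 and 8 and 0 and 1 with lane as a factor, with library size only or by DESeq2. Skeletal muscle had the larger rise from week 2 to 21 in 8 organ pairs for miR-125a-5p, and in 2 with library size only. Thymus had it in 4 pairs for miR-125b-5p and in 1 without lanes 3 and 8, and adrenal gland the smaller rise in 3 for miR-100-5p and in 1 without these lanes or with lane as a factor. The 25 called age tests had 321 values under alternatives: 275 kept their direction and passed, 44 kept their direction and missed the threshold, and 2 changed direction. Those 2 were miR-125a-5p in testis at week 104 against 21 with library size only (-0.52, edgeR's quasi-likelihood test, Benjamini-Hochberg adjusted p = 0.193) and miR-100-5p in testis at week 21 against 2 with lane as a factor (-0.34, edgeR's quasi-likelihood test, Benjamini-Hochberg adjusted p = 0.735). 10 of the 25 passed in every alternative run for them. With library size only, the week 21 counts became 6 higher and 11 lower and the lower count of week 104 became 3. Without lanes 3 and 8, chosen after seeing the data, 5 were lower at week 21 and 1 sex test was higher in males. With lane as a factor 8 were higher at week 104, and without testis 0 were lower. DESeq2 called 3 tests of sex by age. With a 4-fold threshold 48, 34, 38 and 39 organ pairs were called at weeks 2, 6, 21 and 104. The share of all miRNAs called at this threshold was not taken, so these counts are not a result about the members.

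Leaving out each replicate in turn gave 14 to 16 tests higher and 0 to 5 lower at week 21, 3 to 6 higher and 1 to 1 lower at week 104, and 0 to 0 for each sex. It gave 0 to 1 for sex by age and 43 to 69 for the age effect between organs. Organ pairs ran from 126 to 141, 118 to 135, 124 to 135 and 120 to 135 at the 4 ages. Samples with the same replicate number in different organs of an age and sex did not pair (mean r 0.01), so the replicate block serves only as an alternative. The replicate block gave 15 higher at week 21 and 6 at week 104, ended the call of miR-100-5p in thymus (1.08, edgeR's quasi-likelihood test, Benjamini-Hochberg adjusted p = 0.0634) and ended no other of the 25 calls. The cause of these changes was not tested. Testis and uterus rest on 4 samples an age, and a fold that small groups cannot resolve is not shown to be absent.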

Other observations

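Of the 2 samples that the study set aside, the spleen sample was high for all 5 members and the brain sample for miR-99a-5p alone. The paper removed both because they grouped with uterus samples and not with those of their own organ. Both were also in lane 3, where the members lay above their group means in the samples used. The cause of their levels was not tested. The spleen sample of female week 104 replicate 4 had 3889 CPM of miR-99a-5p, 20875 of miR-99b-5p, 7424 of miR-100-5p, 14007 of miR-125a-5p and 8409 of miR-125b-5p. Each of these exceeded the 3 other replicates of its group, which ran for miR-100-5p from 428 to 3596 CPM. The brain sample of male week 6 replicate 3 had 4015 CPM of miR-99a-5p, above the 1611 to 2769 of the 3 others, while its other 4 members lay within the range of the others. With all 320 samples the 25 called age tests kept their direction and their side of the threshold.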
